A study of Mus musculus with 19 samples.

Results

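The immediate early AP-1 and EGR genes are 10 genes, Fos, Fosb, Fosl2, Jun, Junb, Jund, Egr1, Egr2, Ier2 and Atf3, of 56980 genes in the count table. They were chosen by symbol and matched to the Ensembl identifiers of the table through the GENCODE mouse annotation, and the rule itself uses no measured value. All 10 were found, all 10 passed the filter on low counts, and the lowest count of any member in any library was 274 (Egr2). The libraries are total RNA sequencing of CD11b+ cells, which in brain are mainly microglia, from male mice aged 3 to 4 months. The mice lacked Park7, the Parkinson's disease gene that encodes DJ-1, or were wildtype littermates. The knockout (KO) carries a gene-trap allele, Park7 Gt(XE726)Byg, in every cell. Each mouse received 1 intraperitoneal injection of bacterial lipopolysaccharide (LPS, 4 µg/g) or of PBS and was sampled 6 h later, which gave 4 wildtype PBS, 5 KO PBS, 5 wildtype LPS and 5 KO LPS libraries, 1 per animal. A library is named below by genotype, treatment and replicate, for example KO LPS 5, and WT stands for wildtype.

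Immediate early genes are transcribed within minutes of a stimulus from factors that the cell already holds, such as the serum response factor with its ELK partners and CREB, and most of their transcripts decay quickly. Fos and Jun family proteins pair through leucine zippers to form AP-1, the Egr proteins are zinc finger activators, and both families act downstream of MAP kinases in macrophages and microglia exposed to LPS. The same genes are known to be switched on in microglia by warm enzymatic dissociation of brain tissue. All 19 libraries here came from enzymatically dissociated brain followed by CD11b bead selection, with no undissociated or inhibitor-treated control, so the levels that the cells had in the brain and those acquired during isolation cannot be told apart. In bulk RNA, a change in the mix of cells and a change in RNA per cell likewise cannot be told apart.

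Total counts ranged from 11936364 to 22788884 per library, at which 3 counts correspond to 0.139 to 0.256 CPM (counts per 1000000 counts, scaled by trimmed mean of M values). Park7 was 20.6 to 32.1 CPM in the 9 wildtype libraries and 0.457 to 5.38 CPM in the 10 KO libraries, which fits every genotype label. Microglia markers summed to 27120 to 43580 CPM after PBS and 11410 to 18500 CPM after LPS, and neutrophil and monocyte markers to 36.2 to 222 CPM and 169 to 651 CPM. Oligodendrocyte markers ranged from 515 to 11230 CPM within and between all groups. 2 libraries of the KO LPS group stood apart for the members: KO LPS 5 was the highest of its group for 9 of 10 members and KO LPS 1 the lowest for 8 of 10. Results that rest on them are given with and without them.

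The 250 bases before the start of the canonical transcript are shown for 5 members, since these span the range of responses described below: Fosl2, Ier2 and Junb were higher after LPS in both genotypes, Fos was called in KO, and Fosb varied most among libraries. They were read 5′ to 3′ on the gene's strand from GRCm39 with GENCODE M39, the last base being the base before the start. Capitals mark matches to the motifs TATAAA (gene strand only), TGACGTCA, TGACGCAA, TGANTCA, GCGTGGGCG and CCGGAAGT, to the CArG box of the serum response factor and to the kappaB site (both strands). No 2 matches overlapped.
Fosl2: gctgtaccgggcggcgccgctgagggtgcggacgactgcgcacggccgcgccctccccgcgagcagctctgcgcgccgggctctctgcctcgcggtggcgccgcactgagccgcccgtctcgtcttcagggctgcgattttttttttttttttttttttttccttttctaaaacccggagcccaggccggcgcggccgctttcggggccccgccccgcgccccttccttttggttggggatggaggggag
Ier2: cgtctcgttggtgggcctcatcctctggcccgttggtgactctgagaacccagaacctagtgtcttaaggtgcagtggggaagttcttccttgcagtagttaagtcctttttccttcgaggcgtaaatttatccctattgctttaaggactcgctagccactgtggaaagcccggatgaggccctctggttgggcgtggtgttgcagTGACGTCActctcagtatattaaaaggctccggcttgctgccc
Junb: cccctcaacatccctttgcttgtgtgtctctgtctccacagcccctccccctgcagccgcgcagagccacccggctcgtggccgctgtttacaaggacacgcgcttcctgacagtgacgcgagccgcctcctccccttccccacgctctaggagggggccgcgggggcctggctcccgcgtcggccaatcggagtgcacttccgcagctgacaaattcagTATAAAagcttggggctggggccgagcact
Fos: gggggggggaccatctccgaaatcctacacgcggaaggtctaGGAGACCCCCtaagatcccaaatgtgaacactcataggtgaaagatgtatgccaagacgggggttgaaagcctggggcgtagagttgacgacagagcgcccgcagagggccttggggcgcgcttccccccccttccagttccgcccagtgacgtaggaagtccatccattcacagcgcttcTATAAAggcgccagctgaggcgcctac
Fosb: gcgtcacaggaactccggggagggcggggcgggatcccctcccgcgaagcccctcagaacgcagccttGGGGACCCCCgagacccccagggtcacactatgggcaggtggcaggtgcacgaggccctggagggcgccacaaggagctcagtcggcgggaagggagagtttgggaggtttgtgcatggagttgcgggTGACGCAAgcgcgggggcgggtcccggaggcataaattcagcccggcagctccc
The windows lie at chr5:32292457-32292706 (plus strand) for Fosl2, chr8:85389484-85389733 (minus strand) for Ier2, chr8:85705348-85705597 (minus strand) for Junb, chr12:85520408-85520657 (plus strand) for Fos and chr7:19043977-19044226 (minus strand) for Fosb.

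The full cyclic AMP response element, TGACGTCA, stood 43 to 36 bases before the start of Ier2, and it was also in the Jund window. It was found in 1.70% of 21751 promoter windows of protein-coding genes. The TATAAA box stood 30 to 25 bases before the start of Junb and 27 to 22 before that of Fos, against 8.03% of all windows. The related element TGACGCAA was in the Fosb and Egr1 windows (0.520% of all), the kappaB site in Fos and Fosb (4.23%) and the CArG box in Egr2 (1.40%). The Fosl2, Jun and Atf3 windows held none of the 8 motifs, and the AP-1 site TGANTCA (6.17%), GCGTGGGCG (0.547%) and CCGGAAGT (2.64%) were in no member's window. A match describes the letters of this window only.

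After PBS the Jun family and Fos were among the most abundant transcripts of the isolated cells. Per kilobase of merged exon, the members in wildtype PBS ran in the order Jun, Jund, Junb, Fos, Atf3, Egr1, Ier2, Fosb, Egr2 and Fosl2. Jun was at 432 ± 39.9 CPM per kb (SD, n = 4) and ranked 31st of 18616 genes with a length. Jund (246 ± 16.5), Junb (245 ± 42.9) and Fos (179 ± 17.4 CPM per kb, all SD, n = 4) also ranked within the top 0.414%. Fosl2, at 8.52 ± 0.384 CPM per kb, and Egr2, at 9.95 ± 1.81 CPM per kb, lay far lower. Neighbours in that order whose libraries overlapped were Jund and Junb, Atf3 and Egr1, and Egr2 and Fosl2. With the longest transcript as the length, Junb moved ahead of Jund and Fosl2 ahead of Egr2. The order in KO PBS was the same, with more overlap between neighbours. After LPS, Junb led in both genotypes, at 476 ± 76.1 CPM per kb in wildtype (n = 5) and 471 ± 159 CPM per kb in KO (n = 5), and Egr2 was last in both.

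**Figure D1:**
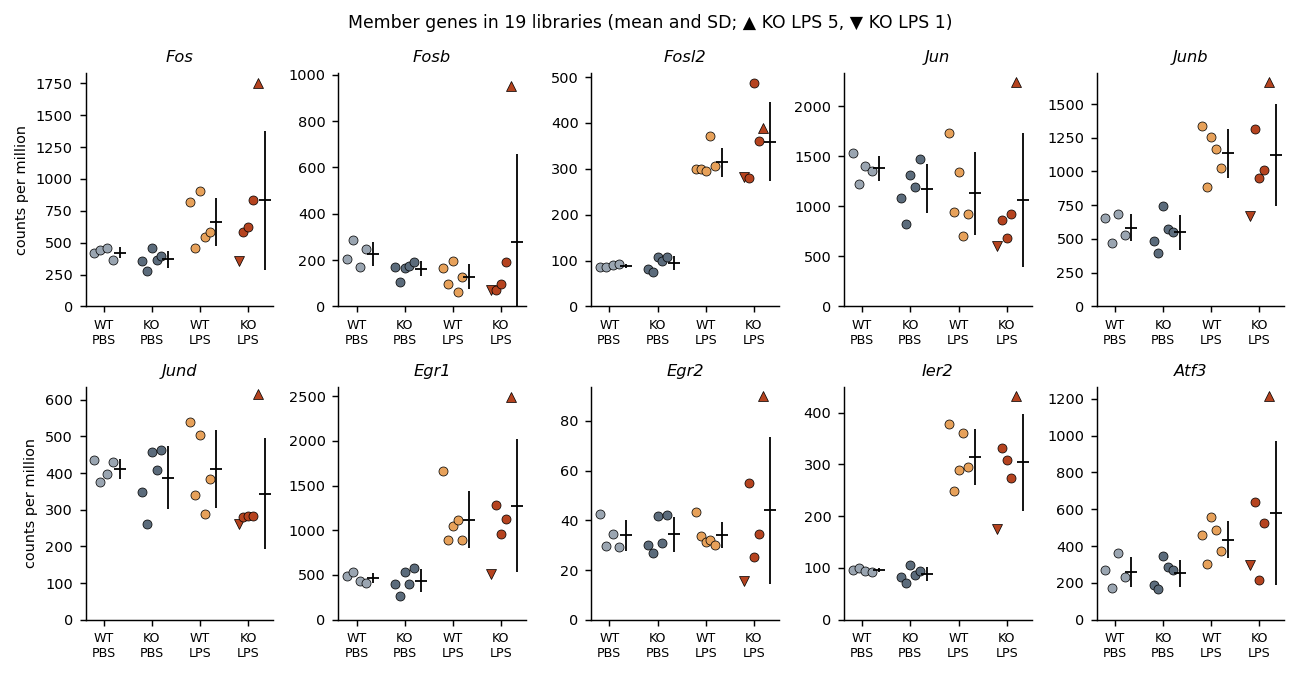
CPM (vertical axis, from 0) of each member gene in the 19 libraries of the 4 groups (horizontal axis). Each point is 1 library, horizontal ticks with bars are the group mean and SD (bars are cut at 0), and triangles mark KO LPS 5 (up) and KO LPS 1 (down); Fosl2 and Ier2 separate LPS from PBS in both genotypes, and KO LPS 5 is the highest KO LPS library in 9 of 10 panels.

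LPS was compared with PBS within each genotype, to ask how the members stood 6 h after a systemic inflammatory stimulus. A gene was called when its Benjamini-Hochberg adjusted p in the edgeR quasi-likelihood test was under 0.05 and its log2 fold change was at least 0.5 in size. In wildtype, 4 of 10 members rose (Fosl2, Ier2, Egr1 and Junb) and none was called lower, while 35.9% of the 18739 genes tested were called, 18.4% as higher. In KO, 6 of 10 rose, the same 4 with Fos and Atf3, and none was called lower, against 39.1% of genes called, 20.1% as higher. The median log2 fold change of the members was 0.70 in wildtype and 1.10 in KO, beside -0.06 and -0.01 over all genes tested. Without KO LPS 5, the median of the members in KO was 0.72. Jun, Jund, Egr2 and Fosb were called in neither genotype. Groups did not overlap for 5 members in wildtype, all higher after LPS (20.8% of all genes), and for 2 in KO (16.2% of all genes).

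Of the Fos family, Fosl2, which encodes Fra-2 and lacks the strong activation domain of Fos, showed the clearest rise. It was 84.8, 85.6, 91.2 and 92.8 CPM in wildtype PBS and 294, 299.2, 299.9, 306 and 372 CPM in wildtype LPS. The KO values were 75.7, 82.1, 99.5, 107 and 109 CPM after PBS and 279, 281, 361, 389 and 488 CPM after LPS. The lowest LPS library of either genotype lay above every PBS library. Fosl2 rose by a log2 fold change of 1.83 ± 0.158 (SE, n = 4 and 5, 3.55-fold) in wildtype, with an edgeR adjusted p of 3.91e-08. In KO the change was 1.93 ± 0.146 (SE, n = 5 and 5, 3.80-fold), with an edgeR adjusted p of 5.47e-09.

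Fos, the founding member of the family, was less regular. It was 365, 422, 439 and 460 CPM in wildtype PBS and 461, 546, 583, 820 and 906 CPM in wildtype LPS. The wildtype groups just failed to overlap, and the exact two-sided permutation test of the mean log2 CPM gave p = 0.0159, where the smallest p of this design is 0.00794. The edgeR test gave a log2 fold change of 0.65 ± 0.326 (SE) and an adjusted p of 0.12, so Fos was not called in wildtype. That test shares 1 estimate of the spread over all 4 groups, and without KO LPS 5 the same wildtype change was called (edgeR adjusted p = 0.0242). In KO, Fos was 277 to 459 CPM after PBS and 356, 582, 624, 837 and 1756 CPM after LPS, a rise of 1.17 ± 0.308 (SE) on the log2 scale with an edgeR adjusted p of 0.0041. The highest value, that of KO LPS 5, was over that of the next library by more than the range of the other 4 libraries, and without it the rise was 0.70 ± 0.221 (edgeR adjusted p = 0.0155). The exact permutation test of Fos in KO, with all libraries, gave p = 0.0317.

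Fosb, an early Fos family gene best known from neurons, had the widest spread of the members. It was 170, 203, 250 and 286 CPM in wildtype PBS and 60.9, 94.8, 126, 165 and 196 CPM in wildtype LPS. KO libraries were at 107 to 191 CPM after PBS and 68.8, 70.2, 97.6, 190 and 954 CPM after LPS. The first 4 KO LPS libraries overlapped KO PBS or lay below it, and KO LPS 5 stood far above every other library of the series. The log2 fold change was -0.82 ± 0.595 (SE) in wildtype (edgeR adjusted p = 0.296) and 0.77 ± 0.566 in KO (edgeR adjusted p = 0.29). Without KO LPS 5 the KO value turned to -0.60 ± 0.322 (edgeR adjusted p = 0.146), and the wildtype value, still -0.82, was called lower (edgeR adjusted p = 0.0429). The exact permutation test gave p = 0.0476 in wildtype and p = 0.968 in KO.

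The Jun family members differed from each other. Junb, which encodes a Jun protein of weaker activating capacity than Jun, was 467, 530, 656 and 682 CPM in wildtype PBS and 888, 1023, 1164, 1256 and 1340 CPM in wildtype LPS. It rose by 0.96 ± 0.229 (SE) on the log2 scale, with an edgeR adjusted p of 0.00216, and the wildtype groups did not overlap. In KO, Junb was 392 to 741 CPM after PBS and 671, 954, 1007, 1312 and 1665 CPM after LPS, a rise of 1.03 ± 0.213 (SE, edgeR adjusted p = 0.000558). Only KO LPS 1, at 671 CPM, fell inside the KO PBS range. Prdx2, a gene on the other strand that overlaps one end of Junb, was 34.5 to 71.1 CPM, and whether counting used the strand is not given in the sources used here.

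Jun, the most abundant member after PBS, showed no call in either direction. It was 1224, 1348, 1404 and 1530 CPM in wildtype PBS and 700.4, 923, 939, 1343 and 1732 CPM in wildtype LPS, a log2 fold change of -0.29 ± 0.322 (SE, edgeR adjusted p = 0.519). KO libraries held 818 to 1469 CPM after PBS and 608, 682, 862, 927 and 2235 CPM after LPS. The KO change was -0.15 ± 0.304 (SE, edgeR adjusted p = 0.738) with all libraries. Without KO LPS 5 it was -0.61 ± 0.228 and called lower (edgeR adjusted p = 0.0371). Junos, an annotated antisense gene that overlaps Jun, was at most 25.8 CPM in any library.

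Jund, the Jun family member usually expressed at a steady level, was 377 to 435 CPM in wildtype PBS and 290, 341, 385, 505 and 540 CPM in wildtype LPS. Its log2 fold change was 0.01 ± 0.244 (SE, edgeR adjusted p = 0.987). KO values were 260 to 464 CPM after PBS, and after LPS 4 libraries lay between 260 and 282 CPM while KO LPS 5 was at 615 CPM. The KO change was -0.17 ± 0.23 (SE, edgeR adjusted p = 0.579), and -0.49 ± 0.178 without KO LPS 5, where its edgeR adjusted p of 0.0324 passed and its size did not reach 0.5. Gm11175, an antisense gene within Jund, was at most 8.13 CPM, and the same limit on strand holds for it and for Junos.

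Since Junb and Jun are counted in the same library, their ratio does not depend on library scaling. The Junb to Jun ratio of CPM was 0.381 to 0.485 in wildtype PBS and 0.375 to 0.565 in KO PBS. After LPS it was 0.774 to 1.66 in wildtype and 0.745 to 1.52 in KO, and no LPS library overlapped a PBS library. KO LPS 5 had a ratio of 0.745 and KO LPS 1 one of 1.10, both above every PBS library. The Fosl2 to Fos ratio was 0.195 to 0.274 over the 9 PBS libraries and 0.325 to 0.681 in wildtype LPS, but in KO LPS it ran from 0.221 in KO LPS 5 to 0.791, so the KO groups overlapped. No other pair of members was computed, so how often such pairs separate is not known. Junb was called higher after LPS in both genotypes, whereas the Jun estimates were negative in both.

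**Figure D2:**
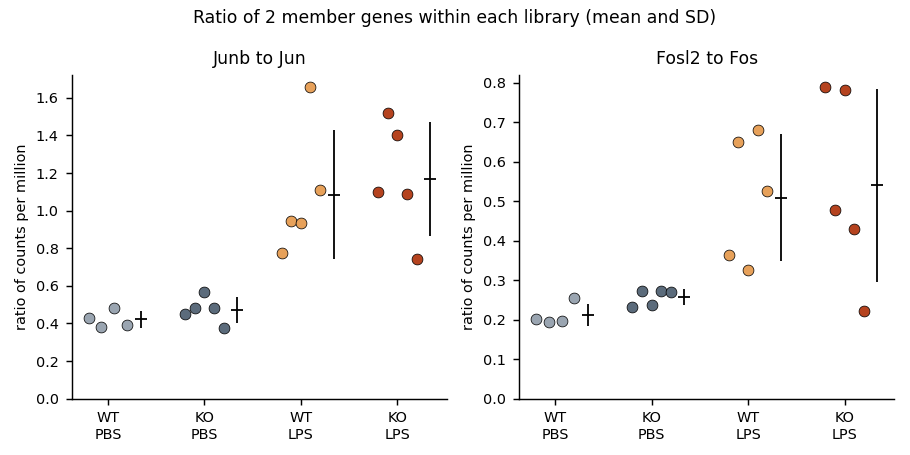
Ratio of CPM (vertical axes, from 0) of Junb to Jun and of Fosl2 to Fos within each library, by group. Points are libraries, and ticks with bars are the group mean and SD; the Junb to Jun ratio of all 10 LPS libraries, 0.745 to 1.66, lies above that of all 9 PBS libraries, 0.375 to 0.565.

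The EGR genes and the remaining members divided in the same way. Egr1, a zinc finger activator induced through ELK and serum response factor sites, was 411, 435, 487 and 539 CPM in wildtype PBS and 886, 896, 1042, 1112 and 1663 CPM in wildtype LPS, with no overlap. It rose by 1.26 ± 0.335 (SE) on the log2 scale in wildtype (edgeR adjusted p = 0.00492). In KO it was 264 to 581 CPM after PBS and 511, 960.1, 1128, 1287 and 2495 CPM after LPS, a rise of 1.55 ± 0.313 (SE, edgeR adjusted p = 0.000446). Without KO LPS 5, the rise in KO was 1.15 ± 0.255 (edgeR adjusted p = 0.00116).

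Egr2, a related factor known for myelination in Schwann cells and for macrophage and T cell states, was the least abundant member after LPS. It was 29.1 to 42.4 CPM in wildtype PBS and 30.2 to 43.4 CPM in wildtype LPS, with a log2 fold change of 0.01 ± 0.339 (SE, edgeR adjusted p = 0.985). In KO it was 26.9 to 42.2 CPM after PBS and 15.4, 25.2, 34.7, 55.2 and 90.1 CPM after LPS. The KO LPS libraries thus reached both below and above the whole PBS range, and the change of 0.36 ± 0.319 (SE, edgeR adjusted p = 0.384) was not called. Without KO LPS 5 the change was -0.07 ± 0.259 (SE, edgeR adjusted p = 0.855), and without KO LPS 1 it was 0.59 ± 0.263 (SE, edgeR adjusted p = 0.076).

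Ier2, an immediate early nuclear protein gene, was 92.7, 94.3, 96.0 and 99.9 CPM in wildtype PBS, the narrowest range of any member in any group relative to its mean (SD 3.26% of the mean). After LPS it was 248, 289, 295, 361 and 378 CPM in wildtype, and in KO it was 70.9 to 106 CPM after PBS and 175, 273, 309, 332 and 432 CPM after LPS. No LPS library overlapped a PBS library. The log2 fold change was 1.71 ± 0.197 (SE) in wildtype, with an edgeR adjusted p of 1.11e-06. The KO change was 1.79 ± 0.182, with an edgeR adjusted p of 2.06e-07.

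Atf3, a stress-induced factor of the ATF and CREB family that dampens inflammatory transcription in macrophages, was 173, 230, 268 and 363 CPM in wildtype PBS and 303, 371, 458, 486 and 557 CPM in wildtype LPS. The groups overlapped, and the change of 0.75 ± 0.378 (SE) was not called (edgeR adjusted p = 0.124). The exact permutation test of Atf3 gave p = 0.0317 in wildtype and p = 0.0714 in KO. In KO it was 166 to 349 CPM after PBS and 218, 298, 528, 642 and 1215 CPM after LPS, a called rise of 1.20 ± 0.356 (SE, edgeR adjusted p = 0.00939). Without KO LPS 5, it was 0.74 ± 0.295, at the edge of the threshold (edgeR adjusted p = 0.0498).

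**Figure D3:**
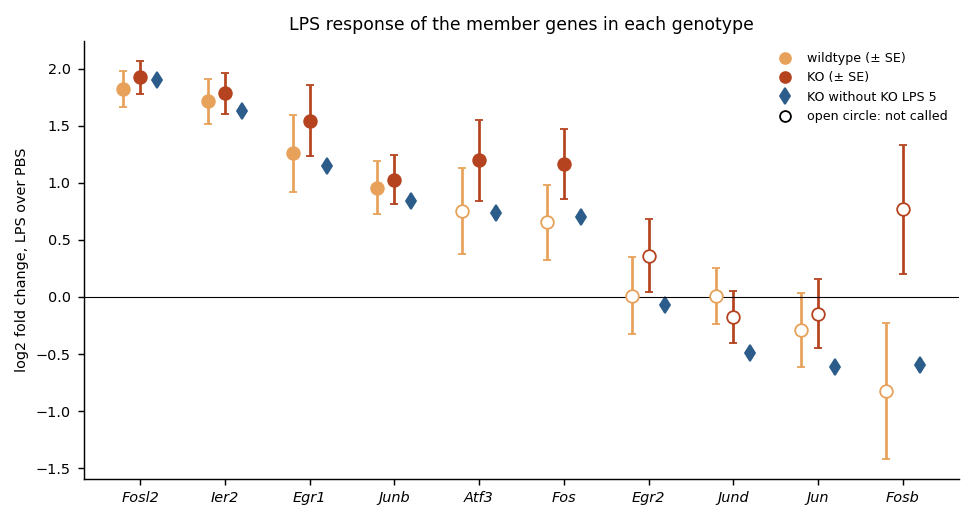
Log2 fold change of LPS over PBS (vertical axis) for each member (horizontal axis, ordered by the wildtype value) in wildtype and KO, with SE bars; filled circles were called, and diamonds give the KO value without KO LPS 5. Fosl2, Ier2, Egr1 and Junb are filled in both genotypes, and Fosb in KO moves from 0.77 to -0.60 when KO LPS 5 is left out.

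With both genotypes averaged in 1 fit, a comparison chosen after seeing the data, the same 6 members as in KO were called higher, with 21.8% of all genes called higher. The averaged log2 fold changes were 1.88 ± 0.108 for Fosl2, 1.75 ± 0.134 for Ier2 and 1.40 ± 0.23 for Egr1. Junb was at 0.99 ± 0.157, Atf3 at 0.98 ± 0.26 and Fos at 0.91 ± 0.225 (all SE). Egr2 was at 0.19, Fosb at -0.03, Jund at -0.08 and Jun at -0.22, none of them called.

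KO was compared with wildtype within each treatment, to ask whether loss of DJ-1 shifted the members. The rule for this comparison, an unadjusted p under 0.05 with a log2 fold change of at least 0.5 in size, was met by 0 of 10 members after PBS, where 0.800% of genes met it. After LPS it was met by 0 of 10, where 1.31% of genes met it. At an unadjusted p under 0.05 with no limit on size, the count was also 0 of 10 in both treatments (1.04% of genes after PBS and 2.57% after LPS). Both shares lie below what a threshold of 0.05 passes when no gene differs, so 0 of 10 does not show that the members were unchanged. By the rule with the size limit, DESeq2 called 0 after PBS and 1, Fosb, after LPS (1.53% of genes). Libraries of the genotypes overlapped for all 10 members in both treatments (non-overlap in 0.971% of genes after PBS and 0.219% after LPS).

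After PBS, the difference of largest size was that of Fosb, at -0.49 ± 0.595 (SE, KO minus wildtype on the log2 scale, edgeR unadjusted p = 0.42). The other 9 ran from -0.23 for Jun to 0.10 for Fosl2. KO PBS 2 was the lowest library of its group for all 10 members, with a summed member level of 2458 CPM against 3233 to 4275 CPM in the other 4 KO PBS libraries and 3720 to 4225 CPM in wildtype PBS. This library had the highest microglia marker sum of the 10 KO libraries, 43580 CPM.

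After LPS, Fosb was 1.10 ± 0.57 (SE) higher in KO on the log2 scale, with an edgeR unadjusted p of 0.0681 and an adjusted p of 1.00. This value rested on KO LPS 5, without which it was -0.27 ± 0.321 (unadjusted p = 0.415). Without the same library, 2 of 10 members met the rule, both as lower in KO, while 2.32% of all genes met it, 1.45% as lower: Jund, at -0.58 ± 0.178 (edgeR unadjusted p = 0.00459, adjusted p = 0.972), and Jun, at -0.55 ± 0.228 (edgeR unadjusted p = 0.0266, adjusted p = 0.972). Jund in wildtype LPS was 290 to 540 CPM, against 260 to 282 CPM in the 4 other KO LPS libraries. With KO LPS 5, at 615 CPM, the groups overlapped. That library was singled out by its member values, and the share of all genes separated without it was not counted. Without KO LPS 1, by contrast, Fosb (1.34, unadjusted p = 0.0247) and Egr2 (0.58, unadjusted p = 0.0404, both edgeR) met the rule as higher in KO, where 1.88% of all genes met it, 1.09% as higher. With both KO LPS 1 and 5 left out, 1 member met it, Jund at -0.55 (edgeR unadjusted p = 0.0139), while 1.88% of all genes met it, 1.16% as lower.

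The difference between the genotypes in their LPS response was tested as an interaction. At an adjusted p under 0.05, edgeR called 0 of 10 members and 0 of 18739 genes, and DESeq2 called 0 members. At an unadjusted p under 0.05, 0 of 10 members passed, with 0.961% of all genes. That share, too, lies below what the threshold passes when no gene differs. The interaction of largest size was 1.59 ± 0.821 (SE, log2) for Fosb, with an edgeR unadjusted p of 0.0676, and it was 0.22 ± 0.45 without KO LPS 5. Fosl2 (0.10 ± 0.206), Ier2 (0.07 ± 0.258) and Junb (0.07 ± 0.308, all SE) had the smallest interactions. Thus the larger number of members called in KO than in wildtype is not a tested difference between the genotypes.

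**Figure D4:**
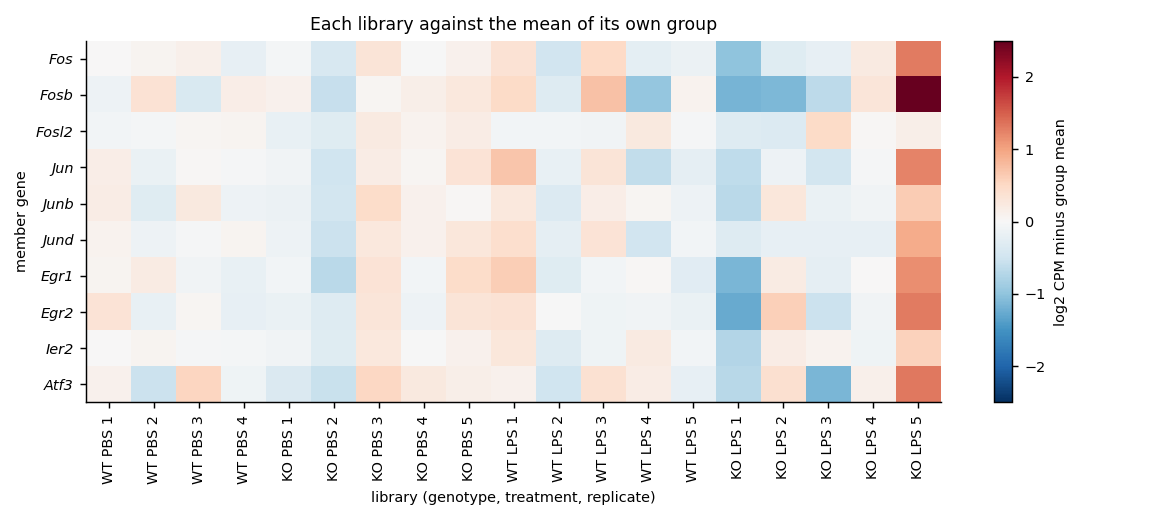
Log2 CPM of each member (rows) in each library (columns) minus the mean of the library's own group, from blue (below the mean) to red (above). KO LPS 5 is red in all 10 rows, most strongly for Fosb, KO LPS 1 and KO PBS 2 are blue in all 10, and the Fosl2 row is the palest.

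The members moved together among libraries of the same group, with Fosl2 the exception. After the group means were removed, the Pearson correlation of each member with the mean of the other 9 over 19 libraries was 0.93 for Fos and Egr1, 0.89 for Jun, 0.87 for Junb, 0.86 for Egr2 and 0.85 for Jund. It was 0.84 for Ier2, 0.77 for Atf3 and Fosb, and 0.33 for Fosl2. Without KO LPS 1 and 5, these correlations were 0.38 to 0.82 for the other 9 and 0.07 for Fosl2. They are descriptions over libraries that share their processing and carry no test.

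The members also differed in spread. The biological coefficient of variation, the replicate scatter left after counting noise, was 59.8% for Fosb, 38.5% for Atf3, 35.6% for Egr2, 33.7% for Egr1, 33.5% for Fos and 33.3% for Jun. It was 25.9% for Jund, 23.7% for Junb, 20.5% for Ier2 and 16.9% for Fosl2. Among the 6030 genes above a log2 CPM of 5, Fosb lay at the 97.8th percentile of this scatter, the other 5 of the first group at the 92.0th to 93.9th, and Fosl2 at the 52.8th. These values rest in part on KO LPS 5. Without that library, an alternative chosen after seeing the data, the coefficient of Fosb was 33.3%, at the 92.9th percentile of 6051 genes above that level, and those of Atf3 (30.9%), Egr2 (27.7%), Egr1 (26.8%), Fos (23.7%) and Jun (23.7%) lay at the 83.6th to 91.6th. Fosl2 was then at 17.1% and the 58.6th percentile.

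By the Pearson correlation with the members' mean deviation over 19 libraries, the genes most like them were Srsf7 (0.96) and Srsf3 (0.93), which encode splicing factors, and Btg2 (0.96) and Klf6 (0.95), which are immediate early genes of other families. Dqx1 (0.93) and 5 long noncoding RNAs (Gm57214, Gm56972, Gm12905, C130036L24Rik and Gm56841, 0.92 to 0.96) completed the 10. Without KO LPS 1 and 5, the 10 values were 0.77 to 0.90. Nothing is read from this likeness about function.

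The summed level of the members was 2458 to 4275 CPM over the PBS libraries, 4494 to 7438 CPM in wildtype LPS and 3244 to 11850 CPM in KO LPS. In KO LPS 5 the 10 genes took 1.04% of all counts, against 0.233% to 0.719% in the wildtype and KO libraries other than that one. The same library had the lowest neuron (21.9 CPM), astrocyte (390 CPM) and endothelial (64.5 CPM) marker sums of its group, and its oligodendrocyte sum (1670 CPM) was the median of the group. KO LPS 1, the lowest, had the highest neuron (161 CPM), oligodendrocyte (11230 CPM), astrocyte (4544 CPM) and endothelial (603 CPM) sums of its group. In wildtype LPS, the library with the highest member sum (WT LPS 1) had the lowest neuron, oligodendrocyte, astrocyte and endothelial sums, and that with the lowest member sum (WT LPS 2) the highest neuron, oligodendrocyte and endothelial sums. Wildtype PBS had the same order in all 4 lists, with the lowest sums in WT PBS 1, the highest in member sum (4225 CPM), and the highest in WT PBS 2, the lowest in member sum (3720 CPM). In KO PBS this order was seen only in part. KO PBS 2, with the lowest member sum, had marker sums inside the range of its group. KO PBS 1, with the next lowest member sum, had the highest sum of each of these 4 marker lists. The neuron and astrocyte sums were lowest in KO PBS 5 and the oligodendrocyte and endothelial sums in KO PBS 4, whereas the member sum was highest in KO PBS 3. None of these 22 markers was at 0 in any library.

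With the mean log2 CPM of those markers as a covariate, the LPS changes in KO were 1.92 for Fosl2, 1.73 for Ier2, 1.39 for Egr1, 0.95 for Junb, 0.99 for Fos and 0.99 for Atf3, all called by edgeR (adjusted p at most 0.0035). Fosb in KO was then at 0.18 ± 0.479 (SE, edgeR adjusted p = 0.776). In wildtype, the covariate left the same 4 members called and added Atf3 (0.77, edgeR adjusted p = 0.0268). In that fit, 19.9% of all genes were called higher in wildtype and 21.1% in KO. Neutrophil and monocyte markers rose with LPS in both genotypes, led by Plac8 (6.36 and 5.49 on the log2 scale). In the fit without the covariate, 6 of 10 were called higher in wildtype and 7 of 10 in KO, against 18.4% and 20.1% of all genes. The part of these markers in the LPS changes of the members was not tested.

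A list of 30 genes linked to tissue dissociation, which include heat shock genes, Socs3, Dusp1 and Cxcl2 and no member, was followed beside the members. Of the 30, 16 rose and 1 fell (Rgs1, -1.01) after LPS in wildtype, and 17 rose and 0 fell in KO, with median log2 fold changes of 0.78 and 1.13 (0.81 in KO without KO LPS 5). Hspa8, a constitutive chaperone, rose by 1.55 in both genotypes, and Hsp90aa1 and Hsp90ab1 were also called higher in both. The other heat shock genes, Hspa1a, Hspa1b, Hspb1, Hspe1, Hsph1, Dnaja1 and Dnajb1, were called in neither. Their changes ran from -0.37 (Dnajb1) to 0.67 (Hsph1) in wildtype and from -0.25 (Dnajb1) to 0.80 (Hsph1) in KO. Socs3, a feedback inhibitor of cytokine signalling, rose by 3.30 in wildtype and 3.60 in KO. The summed level was 5369 to 8345 CPM over the PBS libraries and 12040 to 28560 CPM over the LPS libraries, and it was highest in KO LPS 5 and lowest of the LPS libraries in KO LPS 1. Within KO PBS it was lowest in KO PBS 2. None of the 30 differed between genotypes in either treatment by the rule above, which 0.800% of genes met after PBS and 1.31% after LPS. Since the list holds LPS-responsive genes, a part of isolation in these sums was not tested.

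**Figure D5:**
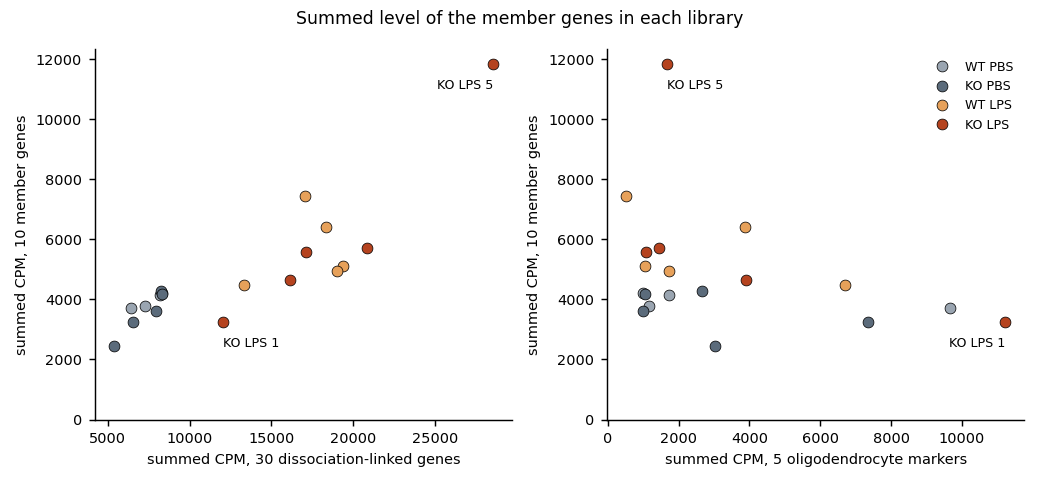
Summed CPM of the 10 members (vertical axes, from 0) against the summed CPM of 30 dissociation-linked genes (left) and of 5 oligodendrocyte markers (right), 1 point per library. KO LPS 5 is highest on the left in both sums, at 11850 and 28560 CPM, and KO LPS 1 combines the lowest member sum of the LPS libraries with the highest oligodendrocyte sum, 11230 CPM.

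Relatives of the members were followed beside them. Of 16 further AP-1 and EGR family genes and cofactors, 8 rose and 1 fell after LPS in wildtype, and 9 rose and 1 fell in KO, with median log2 fold changes of 0.83 and 0.80. Fosl1, which encodes Fra-1, was called higher in both, but it had only 0 to 6 counts per library in wildtype PBS and 0 to 9 in KO PBS, against 15 to 72 and 24 to 67 after LPS, so no fold is given. Batf, a partner of Jun proteins in leukocytes, rose by 3.04 and 2.95, and Batf2 by 3.12 and 1.87. Batf3 (-0.18 and -0.16) and Atf2 (0.01 and -0.06) were not called.

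The repressive partner Jdp2 rose by 2.02 in wildtype and 2.28 in KO. Of the small Maf genes, Maff rose by 2.37 and 3.14 and Mafk by 1.11 and 1.47, and Mafg, at 0.39 and 0.52, was called in KO only, with the difference not called. The large Maf gene Maf, a macrophage identity factor, fell (-1.15 and -1.61). The EGR corepressors Nab1 (1.70 and 1.82) and Nab2 (0.93 and 1.07) rose in both genotypes, while Egr3 (-0.52 and -0.01) and Egr4 (0.74 and 0.11) were called in neither, and Atf7 (0.29 and 0.16) stayed under the size limit.

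Of 19 upstream kinases and promoter factors, 2 rose and 3 fell in wildtype, and 3 rose and 3 fell in KO. These counts were not above the shares over all genes tested, 35.9% called in wildtype and 39.1% in KO. Srf, which encodes the serum response factor, rose by 0.82 in both genotypes, and Map2k3, a p38 activator, by 1.25 and 1.49. Map2k6, the other main p38 activator, was lower by log2 fold changes of -3.56 and -3.63, as were the p38 gene Mapk14 (-1.13 and -1.51) and Mapk3, which encodes ERK1 (-1.10 and -1.17). Map2k1 (0.46 and 0.35) and Elk4 (0.24 and 0.31) were not called.

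Of 36 tested immediate early genes of other families, 22 rose and 0 fell in wildtype, and 23 rose and 1 fell in KO (Rhob, -0.55), with median log2 fold changes of 1.00 and 1.15. Nfil3, a basic leucine zipper factor, rose by 4.50 and 4.21, the nuclear MAP kinase phosphatase gene Dusp2 by 3.86 and 3.98, and Gadd45b by 3.43 and 3.72. Dusp1 rose by 1.68 and 1.94, Mcl1 by 1.01 and 1.16 and Sgk1 by 0.86 and 1.19. 13 of these genes are also on the dissociation list, Dusp1 and Gadd45b among them. No relative or other immediate early gene met the rule between genotypes after PBS, and after LPS only 1 relative did, as lower in KO: Batf2, at -1.10 ± 0.274 (SE, log2 scale, edgeR unadjusted p = 0.000793, adjusted p = 1.00).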

How the data were processed

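The deposited table holds raw counts per Ensembl gene for the 19 libraries, made by the authors from paired-end NovaSeq reads of ribosomal RNA-depleted stranded total RNA. Per the labels and the submitters' processing notes, reads were trimmed with cutadapt (0.17.4 as noted) and aligned to GRCm39 with STAR 2.7.9a, and genes were counted with an Ensembl annotation of that build. The study's methods name the tools for trimming, mapping and counting together. The strand setting of the counting is not given in the sources used here. Cells came from dissociated brains without olfactory bulb and cerebellum, by CD11b beads.

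Identifiers were named from GENCODE M39, which matched 56236 of 56980, 10 of 10 members and 154 of 155 list genes (Fcrls was not matched). Counts were fitted in edgeR 4.0.16 (quasi-likelihood test, R 4.3.3) with 1 term per group, TMM scaling and filterByExpr (minimum count of 10), which left 18739 genes, and p-values were adjusted by Benjamini-Hochberg over them. LPS comparisons needed an adjusted p under 0.05 and a log2 fold change of at least 0.5 in size, KO comparisons an unadjusted p under 0.05 and the same size, and the interaction an adjusted p under 0.05. SE is the fold change over the root of F. Exact permutation tests were two-sided, on mean log2 CPM with a prior count of 2, and were not adjusted. DESeq2 1.42.0, other scalings, filters, covariates, a replicate block and leaving out each library were alternatives. Precision is set by 4 or 5 animals per group rather than by depth. On simulated counts for the wildtype LPS comparison over 18739 genes, 71.4% of genes changed by a log2 fold change of 2 and 43.9% of those changed by 1 were called in the right direction, as were 0.0441% of unchanged genes in any direction. Only 98 genes were changed at each size, whereas 35.9% of genes were called in the real comparison. The adjusted p depends on that share, so these rates do not give the sensitivity of the real comparison.

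The members and lists were chosen with earlier results of these data known. Named genes were all members, all 16 relatives, and in each other list up to 4 of the most abundant and, per direction, up to 3 called genes of largest wildtype LPS change; the text gives a part of the marker lists by their sums. A few genes that this rule names are not reported here. The dissociation-linked and immediate early lists are general knowledge, not measured here. 5 lymphocyte markers passed no filter and summed to at most 1.14 CPM, and border macrophage markers had 3 of 5 called lower after LPS in each genotype. Microglia markers had 12 of 13 called lower in each. Of neuron markers, 1 of 7 was called higher in each genotype, of astrocyte markers 1 of 5 higher, of endothelial markers 2 of 5 lower and of oligodendrocyte markers 0 of 5. Beside these counts, 18.4% of all genes tested were called higher and 17.4% lower in wildtype, and 20.1% and 19.0% in KO.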

Additional observations from a re-analysis of the deposited data

Results flagged for a closer look

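In 40 groups of 4 or 5 libraries (10 members in 4 groups), 1 library lay farther from the others than Dixon's 95% limit in 5 cases. For independent, normally distributed values, that limit flags about 1 group in 20. The members share their libraries and moved together, so the 40 groups are not independent and no excess over chance is read. Of the 5 cases, 3 came from KO LPS 5. It was at 954 CPM for Fosb against 68.8 to 190.0 CPM in the other 4 KO LPS libraries, at 2235 CPM for Jun against 608 to 927 CPM, and at 615 CPM for Jund against 260 to 282 CPM. WT LPS 4 was at 372 CPM for Fosl2 against 294 to 306 CPM, and WT LPS 1 was at 43.4 CPM for Egr2 against 30.2 to 33.8 CPM. No cause was tested for any of them.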

How the results depend on the processing

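The 4 members called in wildtype after LPS (Fosl2, Ier2, Egr1 and Junb) and the 6 called in KO kept direction and call in every alternative run, leave-one-out included. The number called in wildtype was 7 when only the 2 groups compared were fitted in edgeR (38.4% of all genes called) and 7 without KO LPS 1 and 5 (37.7% of all genes), an alternative chosen after seeing the data, with Fos and Atf3 added as higher and Fosb as lower in both. It was 4 to 6 when single libraries were left out (32.6% to 37.8% of all genes), with 6 without KO LPS 5 (37.8% of all genes; Fos added as higher and Fosb as lower). In KO it was 6 to 7 (37.5% to 40.9% of all genes with single libraries left out), with Jun added as lower without KO LPS 5 (37.8%). Between genotypes after LPS it was 1 with no low-count filter (2.44% of all genes) and 1 by DESeq2 (1.53%; Fosb in both), 1 without KO LPS 1 and 5 (1.88%), and 0 to 2 when single libraries were left out, where 1.20% to 2.32% of all genes met the rule (2 without KO LPS 1, 2 without KO LPS 5, and 1, Fosb, without KO LPS 2, KO LPS 3 or WT LPS 3). After PBS and for the interaction it was 0 throughout. Over 1510 alternative values of single members, 1410 kept direction and call, 22 passed the threshold newly, 0 lost it and 78 changed sign; beyond the alternatives' own construction, the cause was not tested.

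Sign changes outside leave-one-out were mostly of values near 0. Under DESeq2 size factors, no filter, at least 10 counts in every library, DESeq2, the 2-group fit, the animal number and the S number of the sample titles as covariates and the marker score, Jund in wildtype LPS against PBS was -0.02, -0.03, -0.07, -0.02, -0.03, -0.01, -0.01 and -0.02, and in the averaged fit -0.08. Egr2 in the same comparison was -0.02, -0.04, -0.06, -0.02, -0.04, -0.03 and -0.03 under the first 7 of these. Egr2 between genotypes after PBS was -0.01, -0.02, -0.01 and -0.01 under the first 4, -0.11 with the animal number and -0.09 with the S number, where Fosl2 was -0.01. The Junb interaction was 0.00 with the marker score. Fosb in KO after LPS was -0.44 without KO LPS 1 and 5 and -0.03 in the averaged fit; without both libraries Fosb between genotypes after LPS was -0.10 and the Jun interaction -0.22.

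Replicate numbers are shared by the groups. No label says that a number marks a shared litter or day. Deviations from the group means of same-numbered LPS and PBS libraries of 1 genotype correlated above 0 in 8 of 9 pairs (-0.042 to 0.576), and those of same-numbered KO and wildtype libraries in 3 of 9 (-0.573 to 0.30); 11 of 18 libraries in the first kind and 4 of 18 in the second correlated best with their own number. Whether same-numbered libraries of 1 genotype shared a litter or day was not tested, and the main fit treated all samples as unpaired. The replicate block used the same terms for both genotypes, so pairing within a genotype was not modelled. With the replicate block, 4 members were called in wildtype and 6 in KO, none between genotypes and none for the interaction; Jund and Egr2 in wildtype LPS against PBS were -0.10 and -0.09, and Egr2 between genotypes after PBS -0.12.

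With single libraries left out, the values that changed sign ran in wildtype LPS against PBS from -0.09 to 0.14 for Egr2 and -0.11 to 0.11 for Jund. They ran in KO LPS against PBS from -0.07 to 0.59 for Egr2, -0.60 to 1.02 for Fosb and -0.61 to 0.01 for Jun. They ran between genotypes after PBS from -0.18 to 0.17 for Atf3, -0.21 to 0.04 for Egr1, -0.06 to 0.14 for Egr2, -0.21 to 0.01 for Junb and -0.15 to 0.03 for Jund. They ran between genotypes after LPS from -0.05 to 0.62 for Atf3, -0.21 to 0.39 for Egr1, -0.07 to 0.58 for Egr2, -0.15 to 0.52 for Fos, -0.27 to 1.35 for Fosb, -0.21 to 0.10 for Ier2, -0.55 to 0.12 for Jun and -0.20 to 0.12 for Junb. They ran for the interaction from -0.01 to 0.66 for Atf3, -0.11 to 0.48 for Egr1, -0.08 to 0.56 for Egr2, -0.03 to 0.18 for Fosl2, -0.09 to 0.21 for Ier2, -0.32 to 0.35 for Jun and -0.12 to 0.20 for Junb.

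The limits are 4 or 5 animals per group, 1 time point, 1 KO allele, 1 isolation protocol without an undissociated control, and counts whose strand setting is not given.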
